A study of Mus musculus with 9 samples.

Results

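The mesenchymal glioblastoma marker genes examined here are 8 genes chosen by symbol as known markers of that tumour state: Cd44, Chi3l1, Spp1, Lgals3, Tgfbi, Anxa1, Anxa2 and S100a4. They were looked up among the 46517 gene identifiers of the count files, and all 8 were found and passed the filter on low counts, within 17947 genes tested. Chi3l1 is listed in the annotation under its other symbol, Chil1. Their levels were followed as CPM, a gene's counts scaled to a library total that was adjusted by edgeR's TMM factors (0.961 to 1.08). The 9 mouse glioblastoma libraries came from 3 genetic models that were made to represent different cells of origin.

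The models were Synapsin-cre, NG2-creERTM and Nestin-creERT2, with 3 tumour libraries each, all from primary tumour tissue of mice on a mixed background. Synapsin-cre is named for a promoter active in neurons, NG2-creERTM for a promoter active in oligodendrocyte precursors and pericytes, and Nestin-creERT2 for one active in neural stem and progenitor cells. CreERTM and creERT2 are forms of the Cre recombinase that tamoxifen switches on, whereas Synapsin-cre carries no such switch. The tumour-driving alleles, ages, treatment times and the animal behind each library are not given in the sources used here, so the p-values measure the spread between libraries only.

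Human glioblastomas are commonly sorted into proneural, classical and mesenchymal expression states, and the mesenchymal state is known for genes of adhesion, wound response and matrix. Tumour cells can move between these states, and signals from macrophages and poorly oxygenated tissue are known to favour the mesenchymal one. The 8 genes cover its main protein classes: the hyaluronan receptor CD44, the calcium-regulated membrane proteins annexin A1 and annexin A2, the calcium-binding protein S100A4, and the secreted proteins osteopontin (Spp1), TGF-beta-induced protein (Tgfbi), galectin 3 (Lgals3) and chitinase-3-like 1 (Chi3l1). Several of these genes are also expressed by macrophages and fibroblasts. In bulk tissue, more cells of a type and more RNA per cell cannot be told apart.

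The libraries held 23557398 to 41099967 counts in genes. Glioma genes were present in all 9, with Olig2 at 39.0 to 810 CPM, Sox2 at 49.6 to 577 CPM and Nes at 55.3 to 689 CPM, each lowest in Synapsin-cre replicate 1. That library stood apart: the neuronal gene Rbfox3 was at 204 CPM, against 1.11 to 52.7 CPM in the other 8, and the proliferation gene Mki67 at 29.3 CPM, against 347 to 672 CPM. Nestin-creERT2 replicate 1 held choroid plexus RNA, with Ttr at 5695 CPM, against 0.872 to 14.5 CPM in the other 8 libraries. Xist was at 1.02 to 1.28 CPM in the Synapsin-cre tumours, 0.989, 1320 and 1.27 CPM in NG2-creERTM and 778 to 1810 CPM in Nestin-creERT2, so sex and model cannot be told apart between Synapsin-cre and Nestin-creERT2.

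No marker gene passed the test in any of the 3 comparisons of models. The edgeR quasi-likelihood test, adjusted over all genes with a threshold of 0.05, called 0 of the 8 genes and 0% of all genes in each comparison. At an unadjusted p under 0.05, edgeR marked 2 of the 8 in Synapsin-cre over Nestin-creERT2 (Tgfbi and Anxa2; 10.8% of all genes), 2 in NG2-creERTM over Nestin-creERT2 (Anxa1 and Tgfbi; 11.3% of all genes) and 0 in Synapsin-cre over NG2-creERTM (12.8% of all genes). Limma voom, limma voom with quality weights and DESeq2 also called 0 of the 8 after adjustment in each comparison, where these tools called 0%, 1.48% and 2.82% of all genes in Synapsin-cre over Nestin-creERT2, 0%, 0.892% and 3.46% in NG2-creERTM over Nestin-creERT2, and 0%, 0% and 2.44% in Synapsin-cre over NG2-creERTM. At an unadjusted p under 0.05 these tools marked 1, 3 and 3 of the 8 in Synapsin-cre over Nestin-creERT2 (10.4%, 21.8% and 13.5% of all genes), 4, 4 and 4 in NG2-creERTM over Nestin-creERT2 (11.1%, 19.2% and 14.4% of all genes) and 0, 1 and 0 in Synapsin-cre over NG2-creERTM (8.95%, 12.3% and 15.2% of all genes). In edgeR fits of 2 models only, 0 of the 8 were called in each comparison in the same order (0.0291%, 1.39% and 0% of all genes), and 1, 3 and 1 had an unadjusted p under 0.05 (8.24%, 19.7% and 8.1% of all genes). The differences in the following are descriptions of libraries, and the spread within a model is given with each.

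Cd44, the receptor for the matrix sugar hyaluronan and also for osteopontin, lies on chromosome 2 (GRCm38, chr2:102811141-102901665, minus strand). It was at 75.8, 116 and 262 CPM in the Synapsin-cre tumours, 131, 75.8 and 165 CPM in NG2-creERTM, and 283, 40.1 and 28.1 CPM in Nestin-creERT2. The highest library and the 2 lowest all belonged to Nestin-creERT2, and the models overlapped throughout. The means were 151 ± 98.0 CPM in the Synapsin-cre tumours, 124 ± 45.1 CPM in NG2-creERTM and 117 ± 144 CPM in Nestin-creERT2 (SD, n = 3 each). The log2 fold changes were 0.37 ± 0.83 (SE) for Synapsin-cre over Nestin-creERT2, 0.08 ± 0.83 for NG2-creERTM over Nestin-creERT2 and 0.29 ± 0.83 for Synapsin-cre over NG2-creERTM. Without Nestin-creERT2 replicate 1 the first 2 became 2.12 and 1.86, with edgeR adjusted p-values of 0.479 and 0.510.

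Anxa2 encodes annexin A2, which binds membrane phospholipids with the partner S100A10 and assembles plasminogen and its activator at the cell surface (chr9:69453620-69491795, plus strand). It was at 42.9, 158 and 534 CPM in the Synapsin-cre tumours, 330, 107 and 227 CPM in NG2-creERTM, and 109, 38.5 and 28.5 CPM in Nestin-creERT2. Synapsin-cre spanned nearly the whole range, while the NG2-creERTM libraries lay at the level of the highest Nestin-creERT2 library or above. The means were 245 ± 257, 221 ± 112 and 58.6 ± 43.8 CPM in Synapsin-cre, NG2-creERTM and Nestin-creERT2 (SD, n = 3 each). The log2 fold change was 2.06 ± 0.88 for Synapsin-cre over Nestin-creERT2 (edgeR adjusted p = 0.447), 1.92 ± 0.87 for NG2-creERTM over Nestin-creERT2 (edgeR adjusted p = 0.453) and 0.15 ± 0.84 for Synapsin-cre over NG2-creERTM. Without Synapsin-cre replicate 3, the library at 534 CPM, the first was 0.74 (edgeR adjusted p = 0.704), and without Synapsin-cre replicate 1 it was 2.54 (edgeR adjusted p = 0.0963). Its partner S100a10 was at 34.6, 96.4 and 243 CPM in the Synapsin-cre tumours, 147, 68.9 and 176 CPM in NG2-creERTM, and 141, 79.5 and 73.7 CPM in Nestin-creERT2. Within Synapsin-cre and within Nestin-creERT2, S100a10 and Anxa2 ranked the libraries in the same order, and within NG2-creERTM they did not.

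Anxa1 encodes annexin A1, a phospholipid-binding protein that is also released and acts on formyl peptide receptors of leukocytes (chr19:20373428-20390944, minus strand). It was at 3.89, 7.92 and 15.3 CPM in the Synapsin-cre tumours, 21.3, 19.9 and 15.4 CPM in NG2-creERTM, and 9.52, 2.19 and 0.453 CPM in Nestin-creERT2. All 3 NG2-creERTM libraries lay above all libraries of both other models, although the margin over the highest Synapsin-cre library was narrow. The log2 fold change was 2.22 ± 0.95 for NG2-creERTM over Nestin-creERT2 (edgeR adjusted p = 0.430), 1.16 ± 0.92 for Synapsin-cre over Nestin-creERT2 and −1.06 ± 0.91 for Synapsin-cre over NG2-creERTM. The level in Nestin-creERT2 replicate 3 rested on 19 counts. Its receptor genes Fpr1 and Fpr2 were at most 1.07 and 2.08 CPM in the 9 libraries.

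**Figure D1:**
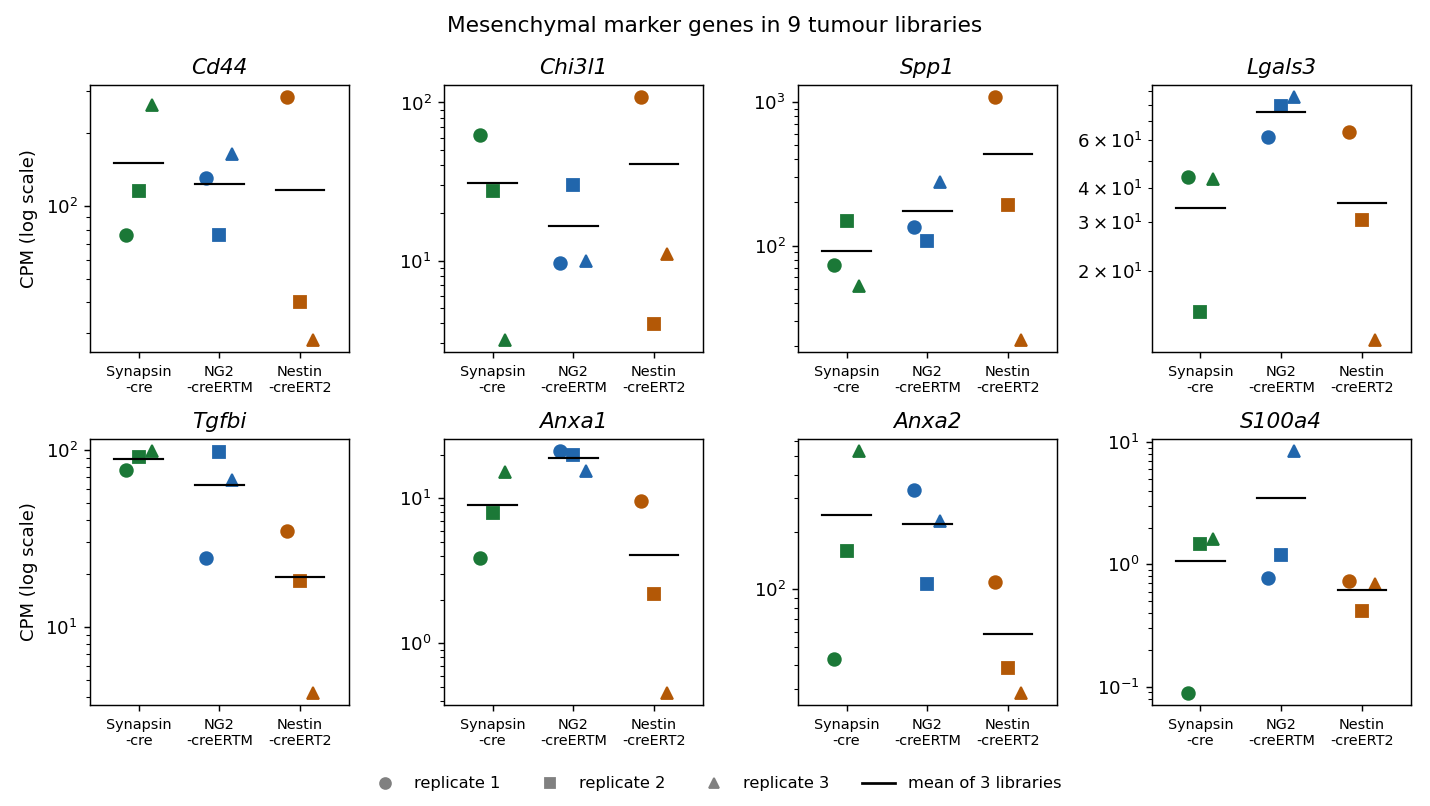
Levels of the 8 marker genes in CPM (log axis, a separate range for each gene) in the 3 libraries of each model, with replicate numbers as symbols and a line at each mean. Nestin-creERT2 replicate 1 (circle) is the highest Nestin-creERT2 library for all 8 genes, and Tgfbi is the gene for which all 3 Synapsin-cre libraries lie above all 3 Nestin-creERT2 libraries.

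The 3 highest Pearson correlations among the marker genes joined Cd44, Anxa1 and Anxa2. Pearson's r of log2 CPM over the 9 libraries was 0.84 for Anxa1 and Anxa2, 0.81 for Cd44 and Anxa2 and 0.78 for Cd44 and Anxa1. Without Nestin-creERT2 replicate 1 these were 0.84, 0.94 and 0.84, and without Synapsin-cre replicate 1 they were 0.84, 0.82 and 0.77. Their place depended on the libraries and the measure: without Synapsin-cre replicate 1, r of Tgfbi and Anxa1 (0.84) and of Lgals3 and Anxa1 (0.78) exceeded that of Cd44 and Anxa1. By Spearman's rho over the 9 libraries, Cd44 and Anxa1 were at 0.53, under Anxa2 and S100a4 (0.77) and Lgals3 and Anxa1 (0.75). The points are the same libraries for every pair, so these values describe the libraries. The promoters of these 3 genes are shown because of that shared variation, each as 300 bases from 250 before the annotated start to 50 after it, 5′ to 3′ on the strand of the gene. They are RefSeq sequences of GRCm38.p6: Cd44 at chr2:102901616-102901915 (minus strand), Anxa1 at chr19:20390622-20390921 (minus strand) and Anxa2 at chr9:69453433-69453732 (plus strand). Capitals mark matches to the motifs described after the sequences.
Cd44: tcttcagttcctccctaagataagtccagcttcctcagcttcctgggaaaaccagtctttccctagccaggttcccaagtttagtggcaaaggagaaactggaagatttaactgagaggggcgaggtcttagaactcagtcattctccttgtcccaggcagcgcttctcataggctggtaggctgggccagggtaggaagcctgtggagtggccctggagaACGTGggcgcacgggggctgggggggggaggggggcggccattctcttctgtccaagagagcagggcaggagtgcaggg
Anxa1: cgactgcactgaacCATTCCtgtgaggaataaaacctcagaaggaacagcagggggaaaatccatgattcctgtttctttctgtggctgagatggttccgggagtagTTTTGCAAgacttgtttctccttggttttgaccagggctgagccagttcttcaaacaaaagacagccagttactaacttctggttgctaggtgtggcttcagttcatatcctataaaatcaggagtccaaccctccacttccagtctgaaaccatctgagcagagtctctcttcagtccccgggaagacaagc
Anxa2: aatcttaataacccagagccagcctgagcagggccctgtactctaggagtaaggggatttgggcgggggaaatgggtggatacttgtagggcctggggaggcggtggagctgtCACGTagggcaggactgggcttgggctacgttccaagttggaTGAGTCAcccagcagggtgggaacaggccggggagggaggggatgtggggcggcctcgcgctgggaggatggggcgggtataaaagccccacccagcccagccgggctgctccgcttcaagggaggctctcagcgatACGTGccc

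Motif letters of factors tied to the mesenchymal state were searched on both strands in the promoters of all 8 genes, which gave 9 windows, 2 of them for Spp1. The AP-1 letters TGANTCA occurred in Anxa2, ending 88 bases before the start, and in 7.81% of 32851 RefSeq promoter windows of the same length. The C/EBP letters TTGCNNAA occurred in Anxa1, ending 135 bases before the start, and in a window of Spp1, against 10.8% of all windows. The TEAD letters GGAATG occurred in Anxa1 at 230 bases before the start, against 14.7% of all windows. The hypoxia response core ACGTG occurred in Cd44 at 24 bases before the start and at 2 places in Anxa2, against 19.6% of all windows, and its other form GCGTG in Lgals3 and Tgfbi, against 32.4%. The RUNX letters TGTGGT occurred in Spp1 (16.8% of all windows) and the STAT letters TTCNNNGAA in none of the 9 windows (8.30% of all windows). No motif was found in all 3 of the promoters shown, and these matches describe letters in a window, not bound sites.

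S100a4 encodes a calcium-binding protein that binds non-muscle myosin and is known from fibroblasts and from migrating tumour cells (chr3:90603771-90606045, plus strand). It was at 0.0885, 1.46 and 1.62 CPM in the Synapsin-cre tumours, 0.779, 1.203 and 8.49 CPM in NG2-creERTM, and 0.735, 0.416 and 0.691 CPM in Nestin-creERT2. All libraries but NG2-creERTM replicate 3 were at or under 1.62 CPM. In CPM all 3 NG2-creERTM libraries lay above the Nestin-creERT2 libraries. For NG2-creERTM replicate 1 the margin rested on 26 counts, against 25 in Nestin-creERT2 replicate 1, and on the TMM scaling. The lowest value rested on 2 counts, which gives an exact 95% Poisson interval of 0.0107 to 0.320 CPM for counting error only. The log2 fold change was 2.502 ± 1.144 for NG2-creERTM over Nestin-creERT2 (edgeR adjusted p = 0.455). Without NG2-creERTM replicate 3 it was 0.69 (edgeR adjusted p = 0.883), and that of Synapsin-cre over NG2-creERTM was 0.10, against −1.71 ± 1.11 with all 9 libraries. That same library held the most Schwann cell and neural crest RNA, a summed 5581 CPM over 13 genes, against 284 to 3079 CPM in the other 8, and the part of this in the level of S100a4 was not tested. Myh9, the gene of the myosin heavy chain bound by S100A4, was at 541, 302 and 309 CPM in NG2-creERTM and 252, 95.3 and 174 CPM in Nestin-creERT2.

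Spp1 encodes osteopontin, a secreted phosphoprotein that binds integrins and CD44 and is made by macrophages as well as tumour cells (chr5:104435118-104441050, plus strand). It was at 73.8, 149 and 52.7 CPM in the Synapsin-cre tumours, 135, 108 and 275 CPM in NG2-creERTM, and 1081, 193 and 22.1 CPM in Nestin-creERT2. The extremes of all 9 libraries were both Nestin-creERT2 tumours, 48.9-fold apart. The means were 91.8 ± 50.5, 173 ± 89.9 and 432 ± 568 CPM in Synapsin-cre, NG2-creERTM and Nestin-creERT2 (SD, n = 3 each). The log2 fold change was −2.23 ± 1.08 for Synapsin-cre over Nestin-creERT2 (edgeR adjusted p = 0.496) and −1.32 ± 1.05 for NG2-creERTM over Nestin-creERT2. Without Nestin-creERT2 replicate 1 these were −0.27 and 0.68, so the direction of the second turned with 1 library. Among the genes named as its receptors, the integrin subunit gene Itgb3 was at 6.46, 44.7 and 28.3 CPM in the Synapsin-cre tumours, 55.6, 12.1 and 20.9 CPM in NG2-creERTM and 5.97, 3.69 and 3.19 CPM in Nestin-creERT2, with no overlap of either model with Nestin-creERT2.

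Tgfbi encodes a secreted matrix protein that TGF-beta induces and that binds integrins (chr13:56609523-56639562, plus strand). It was at 76.8, 91.1 and 98.9 CPM in the Synapsin-cre tumours, 24.4, 97.4 and 67.4 CPM in NG2-creERTM, and 34.9, 18.2 and 4.22 CPM in Nestin-creERT2. The Synapsin-cre libraries agreed closely and all lay above the Nestin-creERT2 libraries, and NG2-creERTM replicate 1 lay among the Nestin-creERT2 values. The means were 88.9 ± 11.2, 63.1 ± 36.7 and 19.1 ± 15.4 CPM in Synapsin-cre, NG2-creERTM and Nestin-creERT2 (SD, n = 3 each). The log2 fold change was 2.22 ± 0.72 for Synapsin-cre over Nestin-creERT2 (edgeR adjusted p = 0.356), 1.72 ± 0.70 for NG2-creERTM over Nestin-creERT2 (edgeR adjusted p = 0.421) and 0.50 ± 0.69 for Synapsin-cre over NG2-creERTM. The first of these had the lowest adjusted p of any marker gene over 496 single-gene tests across all settings and comparisons, 0.0727 in DESeq2. The model accounted for 61.9% of the variance of Tgfbi in log2 CPM, the largest share among the 8 genes, against a median of 28.8% over all genes tested.

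Lgals3 encodes galectin 3, a lectin that binds beta-galactosides on the cell surface and in the matrix and is abundant in macrophages (chr14:47367751-47386160, plus strand). It was at 44.0, 14.1 and 43.2 CPM in the Synapsin-cre tumours, 61.1, 79.3 and 85.6 CPM in NG2-creERTM, and 64.1, 30.6 and 11.2 CPM in Nestin-creERT2. The NG2-creERTM libraries all lay above the Synapsin-cre libraries, and Nestin-creERT2 replicate 1 reached the lower end of NG2-creERTM. The log2 fold change was −1.16 ± 0.62 for Synapsin-cre over NG2-creERTM (edgeR adjusted p = 0.455), 1.09 ± 0.62 for NG2-creERTM over Nestin-creERT2 and −0.06 ± 0.61 for Synapsin-cre over Nestin-creERT2. Macrophage and microglia RNA, summed over 21 marker genes, was at 1484, 484 and 421 CPM in the Synapsin-cre tumours, 1317, 1607 and 1384 CPM in NG2-creERTM, and 1364, 1412 and 1051 CPM in Nestin-creERT2. Synapsin-cre replicates 2 and 3 were low in these markers and Nestin-creERT2 was not, and their part in the level of Lgals3 was not tested.

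Chi3l1 encodes a secreted chitinase-like protein without enzyme activity that reactive astrocytes, macrophages and mesenchymal tumour cells release (chr1:134182176-134190181, plus strand). It was at 62.5, 27.4 and 3.16 CPM in the Synapsin-cre tumours, 9.68, 30.0 and 9.93 CPM in NG2-creERTM, and 108, 3.99 and 10.9 CPM in Nestin-creERT2. High and low libraries occurred in every model, and the model accounted for 0.666% of its variance in log2 CPM. The log2 fold changes were −0.41 ± 1.23, −1.31 ± 1.24 and 0.91 ± 1.23 for Synapsin-cre over Nestin-creERT2, NG2-creERTM over Nestin-creERT2 and Synapsin-cre over NG2-creERTM. The first and second were positive, at 1.99 and 1.14, without Nestin-creERT2 replicate 1. Gfap, the astrocyte filament gene, was at 4023, 1936 and 94.1 CPM in the Synapsin-cre tumours, 312, 2016 and 433 CPM in NG2-creERTM and 2428, 3095 and 1392 CPM in Nestin-creERT2. Within Synapsin-cre and NG2-creERTM the library highest in Gfap was also highest in Chi3l1, and within Nestin-creERT2 it was the lowest.

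Levels of different genes were compared per kilobase of annotated exon. Over the 9 libraries Spp1 averaged 141 CPM per kb, Anxa2 46.9, Lgals3 25.9, Cd44 19.3, Tgfbi 15.1, Chi3l1 10.5, Anxa1 3.66 and S100a4 2.95 CPM per kb. By the mean of each model, Anxa2 (65.6 CPM per kb) stood before Spp1 (55.7 CPM per kb) in Synapsin-cre, whereas Spp1 led in NG2-creERTM (105 CPM per kb) and in Nestin-creERT2 (262 CPM per kb). The order in Synapsin-cre rested on replicate 3, with Anxa2 at 143 and Spp1 at 32.0 CPM per kb, since Spp1 was the higher in replicate 1 (44.8 against 11.5 CPM per kb for Anxa2) and in replicate 2 (90.3 against 42.3 CPM per kb). The Spp1 level in Nestin-creERT2 rested on replicate 1, at 656 CPM per kb, against 117 and 13.4 CPM per kb in replicates 2 and 3. Cd44 likewise exceeded Anxa2 in Nestin-creERT2 in replicate 1 (41.7 against 29.2 CPM per kb), and not in replicate 2 (5.91 against 10.3 CPM per kb) or replicate 3 (4.14 against 7.63 CPM per kb).

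The spread of these genes among tumours was wide. The SD of log2 CPM over the 9 libraries lay between 1.05 (Lgals3) and 1.78 (Anxa1), against a median of 0.69 over all genes tested. The ratio of the highest to the lowest library ran from 7.62 for Lgals3 to 95.9 for S100a4. For 4 genes the model accounted for a larger share of the variance than the median gene: Tgfbi, Anxa1 (56.6%), Lgals3 (42.4%) and Anxa2 (40.9%). For S100a4 (25.9%), Cd44 (15.1%), Spp1 (9.42%) and Chi3l1 the share was below it.

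**Figure D2:**
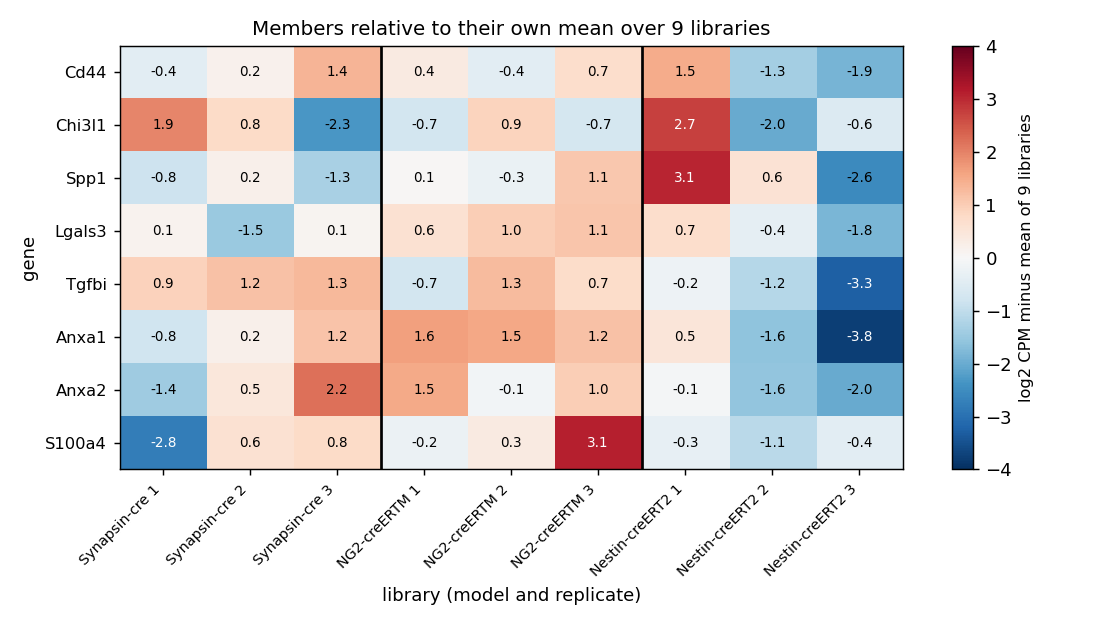
Level of each marker gene in each library as log2 CPM minus the gene's mean over the 9 libraries, with the models separated by lines. Nestin-creERT2 replicates 2 and 3 are below the mean for every gene, except Spp1 in replicate 2, Nestin-creERT2 replicate 1 is high for Spp1, Chi3l1 and Cd44, and Chi3l1 follows a pattern of its own.

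The widest contrast lay inside the Nestin-creERT2 model. Replicate 1 was the highest of its 3 libraries for 8 of the 8 genes, as it was for 32.2% of all genes tested. It exceeded the mean of replicates 2 and 3 by 14.5-fold in Chi3l1, 10.04-fold in Spp1, 8.30-fold in Cd44, 7.21-fold in Anxa1, 3.25-fold in Anxa2, 3.11-fold in Tgfbi, 3.06-fold in Lgals3 and 1.33-fold in S100a4. It was the highest of all 9 libraries for Cd44, Chi3l1 and Spp1 (6.88% of all genes). At the other end, Nestin-creERT2 replicate 3 was the lowest of all 9 libraries for 6 of the 8, all but Chi3l1 and S100a4 (6.92% of all genes). The mean log2 CPM of the 8 genes was 5.73 in Nestin-creERT2 replicate 1, 3.68 in replicate 2 and 2.72 in replicate 3, against 4.35 to 5.16 in Synapsin-cre and 5.06 to 5.77 in NG2-creERTM. Replicate 1 is the library with choroid plexus RNA, a summed 6011 CPM over 6 genes, against 6.76 and 8.43 CPM in replicates 2 and 3, and its part in these levels was not tested. Its summed macrophage level, 1364 CPM, lay between those of replicates 2 and 3, and its fibroblast level, 444 CPM over 12 genes, lay above the 99.4 and 116 CPM of replicates 2 and 3.

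Set side by side, the models gave the following pattern. In Synapsin-cre over Nestin-creERT2, 5 of 8 genes had a positive log2 fold change, as had 57.8% of all genes, and the median over the 8 was 0.58, against 0.13 over all genes. Tgfbi was the 1 gene that had all Synapsin-cre libraries above all Nestin-creERT2 libraries (8.46% of all genes), and none had them below (6.26% of all genes). In NG2-creERTM over Nestin-creERT2, 6 of 8 were positive (50.9% of all genes), with a median of 1.41, against 0.02 over all genes. Here 2 genes, Anxa1 and S100a4, had all NG2-creERTM libraries above (11% of all genes), and none had them below (14.2% of all genes). For S100a4 this rested on 26 against 25 counts and on the TMM scaling. In Synapsin-cre over NG2-creERTM, 4 of 8 were positive (54.6% of all genes), with a median of −0.38, against 0.08 over all genes. There Lgals3 and Anxa1 had all Synapsin-cre libraries below (5.76% of all genes) and none had them above (8.04% of all genes). The first 2 comparisons share the Nestin-creERT2 libraries, so they are not separate evidence of one another.

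Nestin-creERT2 replicate 1 was the highest library of its model for all 8 genes (32.2% of all genes). Leaving it out raised the log2 fold change of every marker gene over that model, which follows from the choice of library. The counts given for this setting depend on that choice, and the shares of all genes beside them are not a like background. Without that library, all 8 log2 fold changes in NG2-creERTM over Nestin-creERT2 were positive (51.1% of all genes), with a median of 2.17. They were largest for Anxa1 (3.83), Anxa2 (2.72) and S100a4 (2.65). The NG2-creERTM libraries lay above both remaining Nestin-creERT2 libraries for 6 of the 8 genes (16.3% of all genes). In Synapsin-cre over Nestin-creERT2 7 of 8 were positive (57% of all genes), with a median of 2.06, the largest for Tgfbi (2.95), Anxa2 (2.85) and Anxa1 (2.74). For 4 of 8 the Synapsin-cre libraries lay above both remaining Nestin-creERT2 libraries (12.4% of all genes), and for none below (10% of all genes). The edgeR adjusted test still called 0 of the 8 and 0% of all genes in both comparisons, with 4 of the 8 at an unadjusted p under 0.05 in Synapsin-cre over Nestin-creERT2 (8.05% of all genes) and 5 in NG2-creERTM over Nestin-creERT2 (8.68% of all genes). Leaving out Synapsin-cre replicate 1 instead gave a median of 0.997 in Synapsin-cre over Nestin-creERT2, with 3 of 8 genes above without overlap (19.2% of all genes) and 0 called by edgeR, although that fit called 1.48% of all genes. The same fit called 0 of the 8 in NG2-creERTM over Nestin-creERT2 (0.671% of all genes).

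**Figure D3:**
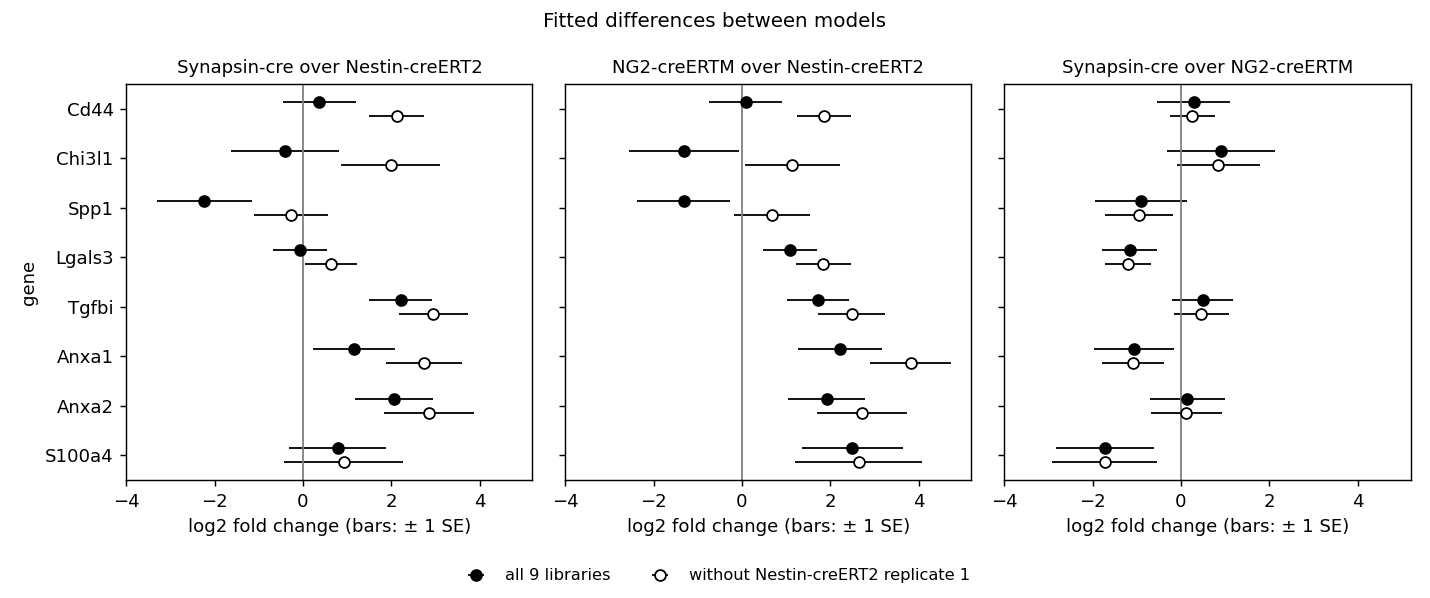
Fitted log2 fold change (x axis, bars ± 1 SE) of each marker gene in the 3 comparisons, with all 9 libraries (filled) and without Nestin-creERT2 replicate 1 (open). The open points lie to the right of the filled ones for all 8 genes in both comparisons with Nestin-creERT2, and the points of Synapsin-cre over NG2-creERTM hardly move. The shift to the right follows from leaving out the highest Nestin-creERT2 library.

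The 8 genes did not vary as 1 block. Of the 28 pairs, 26 had a positive Pearson's r over the 9 libraries, with a median of 0.45. Beside the 3 pairs of Cd44, Anxa1 and Anxa2, the closest were Tgfbi with Anxa1 (r = 0.77) and Lgals3 with Anxa1 (r = 0.76). Chi3l1 stood apart, with r of −0.32 to S100a4 and −0.27 to Anxa2, and its highest value, 0.43 to Spp1, was −0.02 without Nestin-creERT2 replicate 1.

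The genes whose levels were most like each marker gene were read from Pearson's r over the same 9 libraries, as a description. The search covered the protein-coding genes tested, and left out predicted genes and genes with clone names only. Cd44 was closest to Tnfrsf23 (r = 0.95) and to Plaur (r = 0.95), the gene of the urokinase receptor, at 5.09, 12.8 and 24.5 CPM in the Synapsin-cre tumours, 11.99, 9.86 and 24.7 CPM in NG2-creERTM and 21.4, 4.49 and 3.34 CPM in Nestin-creERT2. Anxa2 was closest to Gprc5a (r = 0.98), Lrrc41 (r = 0.97) and Gmpr2 (r = 0.97), and Anxa1 to Colgalt2 (r = 0.96), Vdr (r = 0.94), the vitamin D receptor gene, and Uaca (r = 0.94). Tgfbi was closest to Dlst (r = 0.92), a gene of mitochondrial metabolism, and to Mmp9 (r = 0.92), the gene of a matrix metalloproteinase, which ran from 0.0715 CPM in Nestin-creERT2 replicate 3 to 21.2 CPM in Synapsin-cre replicate 3. Lgals3 was closest to Ccl11 (r = 0.94), an eosinophil-attracting chemokine gene, Spp1 to Col4a4 (r = 0.92), a basement membrane collagen gene, and Chi3l1 to Pik3ip1 (r = 0.98). Ccl11 was near the floor, at 0 to 3.72 CPM. Gprc5a (0.222 to 9.68 CPM), Tnfrsf23 (0.905 to 7.05 CPM) and Col4a4 (0.810 to 8.93 CPM) were also low. S100a4 was closest to Wdr36 (r = 0.96). The mean standardised level of the 8 genes was most like Ecm1 (r = 0.95), Pyroxd2 (r = 0.94) and Emilin2 (r = 0.93), of which Ecm1 and Emilin2 encode matrix proteins.

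Wider lists of mesenchymal genes were counted beside the 8. Over all genes, 57.8% were positive in Synapsin-cre over Nestin-creERT2, 50.9% in NG2-creERTM over Nestin-creERT2 and 54.6% in Synapsin-cre over NG2-creERTM. The medians over all genes were 0.13, 0.02 and 0.08. In the astrocyte-like mesenchymal list, 30 of 48 genes were positive in Synapsin-cre over Nestin-creERT2 (median 0.38) and 37 of 48 in NG2-creERTM over Nestin-creERT2 (median 0.42), while 16 of 48 were in Synapsin-cre over NG2-creERTM (median −0.27). The edgeR adjusted test called 0 in each. At an unadjusted p under 0.05 it marked 4 higher and 2 lower, 7 higher and 0 lower, and 0 higher and 1 lower, in the same order of comparisons. Over all genes the shares marked higher and lower were 6.74% and 4.05%, 5.53% and 5.73%, and 8.81% and 4%, and the 8 marker genes had 2, 2 and 0 marked higher and 0 marked lower. Emp3, a small membrane protein gene used as a mesenchymal marker, was at 75.04, 44.1 and 61.1 CPM in NG2-creERTM and 19.9, 10.3 and 10.7 CPM in Nestin-creERT2 (log2 fold change 2.14 ± 0.58, edgeR adjusted p = 0.303). Igfbp7, which encodes a secreted protein that binds insulin-like growth factors, was at 162, 97.8 and 165 CPM in NG2-creERTM and 65.7, 28.8 and 26.7 CPM in Nestin-creERT2 (log2 fold change 1.81 ± 0.40, edgeR adjusted p = 0.249). Both had all NG2-creERTM libraries above the Nestin-creERT2 libraries. Vim, the gene of the filament vimentin, overlapped between models, at 541, 2757 and 3324 CPM in the Synapsin-cre tumours, 949, 1172 and 2522 CPM in NG2-creERTM and 1516, 868 and 918 CPM in Nestin-creERT2. The list also held Met, which was very uneven between libraries. Among the Synapsin-cre tumours, replicate 2 reached 9037 CPM, while replicates 1 and 3 had 40.1 and 24.51 CPM. Among those of NG2-creERTM, replicate 3 reached 5707 CPM, while replicates 1 and 2 had 9.26 and 26.89 CPM. The Nestin-creERT2 tumours had 19.98, 11.75 and 4.336 CPM of Met.

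The hypoxia-like mesenchymal list had 26 of 34 genes positive in Synapsin-cre over Nestin-creERT2 (median 0.56) and 27 of 34 in NG2-creERTM over Nestin-creERT2 (median 0.64), with 16 of 34 in Synapsin-cre over NG2-creERTM (median −0.05). The edgeR adjusted test called 0 in each. At an unadjusted p under 0.05 it marked 4 and 7 genes higher and 0 lower in the first 2 comparisons. In the third it marked 1 higher and 2 lower. The shares of all genes marked higher and lower were 6.74% and 4.05%, 5.53% and 5.73%, and 8.81% and 4%. The shares of all genes that were positive were 57.8%, 50.9% and 54.6%. Ndrg1, a stress gene induced by low oxygen, was at 204, 189 and 133 CPM in NG2-creERTM and 62.8, 11.2 and 31.2 CPM in Nestin-creERT2 (log2 fold change 2.32 ± 0.59, edgeR adjusted p = 0.297). Ddit3, which encodes a transcription factor of the unfolded protein response, was at 72.1, 68.2 and 103 CPM in NG2-creERTM and 35.2, 34.1 and 28.6 CPM in Nestin-creERT2 (log2 fold change 1.31 ± 0.33, edgeR adjusted p = 0.297). Slc2a1, the gene of a glucose transporter, was at 152, 370 and 367 CPM in Synapsin-cre and 173, 67.9 and 97.1 CPM in Nestin-creERT2 (log2 fold change 1.40 ± 0.49, edgeR adjusted p = 0.389). In all 3 genes Nestin-creERT2 replicate 1 was the highest library of its model.

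Among 26 regulators tied to the mesenchymal state, 19, 18 and 16 were positive in Synapsin-cre over Nestin-creERT2, NG2-creERTM over Nestin-creERT2 and Synapsin-cre over NG2-creERTM (medians 0.41, 0.38 and 0.16), and edgeR called 0 in each after adjustment. At an unadjusted p under 0.05 it marked 4 higher and 1 lower, 2 higher and 1 lower, and 1 higher and 0 lower. Of all genes, it marked 6.74% higher and 4.05% lower, 5.53% and 5.73%, and 8.81% and 4%, in the same order. Positive log2 fold changes were found for 57.8%, 50.9% and 54.6% of all genes. Stat3, a transcription factor gene of cytokine signalling, was at 255, 441 and 305 CPM in the Synapsin-cre tumours, 342, 316 and 263 CPM in NG2-creERTM and 256, 149 and 200 CPM in Nestin-creERT2. Zeb1, a repressor of epithelial genes, was lower in Synapsin-cre, at 189, 268 and 146 CPM, against 458, 412 and 477 CPM in Nestin-creERT2 (log2 fold change −1.16 ± 0.44, edgeR adjusted p = 0.411). Runx2, a bone-lineage transcription factor gene, was lower in NG2-creERTM, at 13.01, 6.96 and 8.19 CPM, against 16.3, 32.6 and 28.0 CPM in Nestin-creERT2 (log2 fold change −1.45 ± 0.42, edgeR adjusted p = 0.318). Zeb1 and Runx2 thus lay on the other side of 0 from the medians of the list.

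Ligands, receptors and partners of the 8 proteins were tested for 25 of 27 genes. Of these 16 were positive in Synapsin-cre over Nestin-creERT2 (median 0.35), 19 in NG2-creERTM over Nestin-creERT2 (median 0.44) and 5 in Synapsin-cre over NG2-creERTM (median −0.35), and edgeR called 0 in each after adjustment. At an unadjusted p under 0.05 it marked 3 higher and 1 lower, 3 higher and 1 lower, and 0 higher and 2 lower. Beside these stand 6.74% and 4.05%, 5.53% and 5.73%, and 8.81% and 4% of all genes marked higher and lower. In the same order, 57.8%, 50.9% and 54.6% of all genes were positive. Itga9, the gene of an integrin subunit that binds osteopontin, was lower in Synapsin-cre, at 13.6, 26.0 and 25.4 CPM, against 84.2, 146 and 188 CPM in Nestin-creERT2 (log2 fold change −2.69 ± 0.52, edgeR adjusted p = 0.226). Itgb3 ran the other way in the same comparison (log2 fold change 2.63 ± 0.78, edgeR adjusted p = 0.329), without overlap of the libraries. Has2, which encodes an enzyme that makes the CD44 ligand hyaluronan, was at 1.59, 10.9 and 77.9 CPM in the Synapsin-cre tumours, 114, 61.6 and 28.3 CPM in NG2-creERTM and 12.5, 4.41 and 9.53 CPM in Nestin-creERT2, and all 3 NG2-creERTM libraries lay above Nestin-creERT2. Without Synapsin-cre replicate 1, edgeR called Itgb5, another integrin subunit gene, lower in Synapsin-cre than in Nestin-creERT2 (log2 fold change −2.11 ± 0.32, adjusted p = 0.0292), and C3, the complement gene of the astrocyte-like list (log2 fold change −3.75 ± 0.60, adjusted p = 0.0326).

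The annexin, S100, galectin and chitinase-like families, to which 5 of the marker proteins belong, were also counted. Over all genes, 57.8% were positive in Synapsin-cre over Nestin-creERT2, 50.9% in NG2-creERTM over Nestin-creERT2 and 54.6% in Synapsin-cre over NG2-creERTM. Of 10 annexin genes tested, 9 were positive in Synapsin-cre over Nestin-creERT2 and 10 in NG2-creERTM over Nestin-creERT2 (medians 0.58 and 0.91). Of 12 S100 genes tested, 6 and 11 were positive in these comparisons (medians −0.04 and 0.47), and 2 were in Synapsin-cre over NG2-creERTM (median −0.71). Of 7 galectin genes tested, 6 and 6 were positive (medians 0.21 and 1.09), and 1 was in Synapsin-cre over NG2-creERTM (median −0.43). Of 5 chitinase-like genes tested, Chi3l1 among them, 3 were positive in Synapsin-cre over Nestin-creERT2, 1 in NG2-creERTM over Nestin-creERT2 and 3 in Synapsin-cre over NG2-creERTM (medians 0.92, −0.28 and 0.91). The edgeR adjusted test called 0 in each family. At an unadjusted p under 0.05 it marked at most 1 gene per family and comparison. The exception was 1 higher and 1 lower chitinase-like gene in Synapsin-cre over NG2-creERTM. Of all genes, 10.8% were so marked in Synapsin-cre over Nestin-creERT2, 11.3% in NG2-creERTM over Nestin-creERT2 and 12.8% in Synapsin-cre over NG2-creERTM. Lgals1, the gene of galectin 1, was at 431, 488 and 634 CPM in NG2-creERTM and 234, 37.4 and 165 CPM in Nestin-creERT2, without overlap, and spread over 26.9, 315 and 812 CPM in Synapsin-cre. S100b, known from astrocytes and Schwann cells, was at 461, 449 and 366 CPM in NG2-creERTM and 40.5, 23.2 and 238 CPM in Nestin-creERT2 (log2 fold change 2.08 ± 0.76, edgeR adjusted p = 0.383). The 1 chitinase-like gene that was positive in NG2-creERTM over Nestin-creERT2 was Chit1, at 4.08, 0.288 and 9.43 CPM in NG2-creERTM and at most 0.0588 CPM in Nestin-creERT2.

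RNA of other cell types that can express marker genes was summed in the same libraries, as a description. With all 9 libraries, the edgeR adjusted test called 0 genes of the lists named here in each comparison. Over all genes, 57.8% were positive in Synapsin-cre over Nestin-creERT2 and 50.9% in NG2-creERTM over Nestin-creERT2. Fibroblast and meningeal genes had a summed level of 285 to 521 CPM in the Synapsin-cre tumours, 648 to 1056 CPM in NG2-creERTM and 99.4 to 444 CPM in Nestin-creERT2, and 10 of 12 were positive in Synapsin-cre over Nestin-creERT2 and 9 of 12 in NG2-creERTM over Nestin-creERT2 (medians 1.03 and 1.86). Of their defining genes, Col3a1 was at 10.5, 39.3 and 51.1 CPM in the Synapsin-cre tumours, 41.1, 29.0 and 86.1 CPM in NG2-creERTM and 4.20, 1.80 and 0.953 CPM in Nestin-creERT2. Dcn, of the same list, overlapped between models. Its levels were 65.37, 14.04 and 3.127 CPM in the Synapsin-cre tumours and 0.8691, 6.278 and 64.42 CPM in NG2-creERTM. In Nestin-creERT2 they were 9.579, 1.136 and 2.382 CPM. Of the 1056 CPM in NG2-creERTM replicate 1, Col1a1 alone made up 480.2 CPM, against 30.79 and 68.17 CPM in replicates 2 and 3. Pericyte and smooth muscle genes summed to 287 to 620 CPM in Synapsin-cre libraries, 480 to 972 CPM in NG2-creERTM and 163 to 195 CPM in Nestin-creERT2, with no overlap of either model with Nestin-creERT2, whereas the fibroblast and endothelial sums of Synapsin-cre and Nestin-creERT2 overlapped. Of 12 such genes, 8 were positive in Synapsin-cre over Nestin-creERT2 and 9 in NG2-creERTM over Nestin-creERT2 (medians 0.62 and 1.38). Endothelial genes summed to 290 to 537 CPM in the Synapsin-cre tumours, 297 to 525 CPM in NG2-creERTM and 173 to 294 CPM in Nestin-creERT2. Schwann cell and neural crest genes summed to 1069 to 3079 CPM in the Synapsin-cre tumours, 1660 to 5581 CPM in NG2-creERTM and 284 to 857 CPM in Nestin-creERT2, with 13 of 13 positive in both comparisons with Nestin-creERT2. Lymphocyte markers were low, with a summed level of 0.36 CPM (NG2-creERTM replicate 1) to 4.21 CPM (Nestin-creERT2 replicate 2) over 4 genes. Cd3e was at 0 to 0.333 CPM. The part of any of these cell types in the levels of the 8 genes was not tested.

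**Figure D4:**
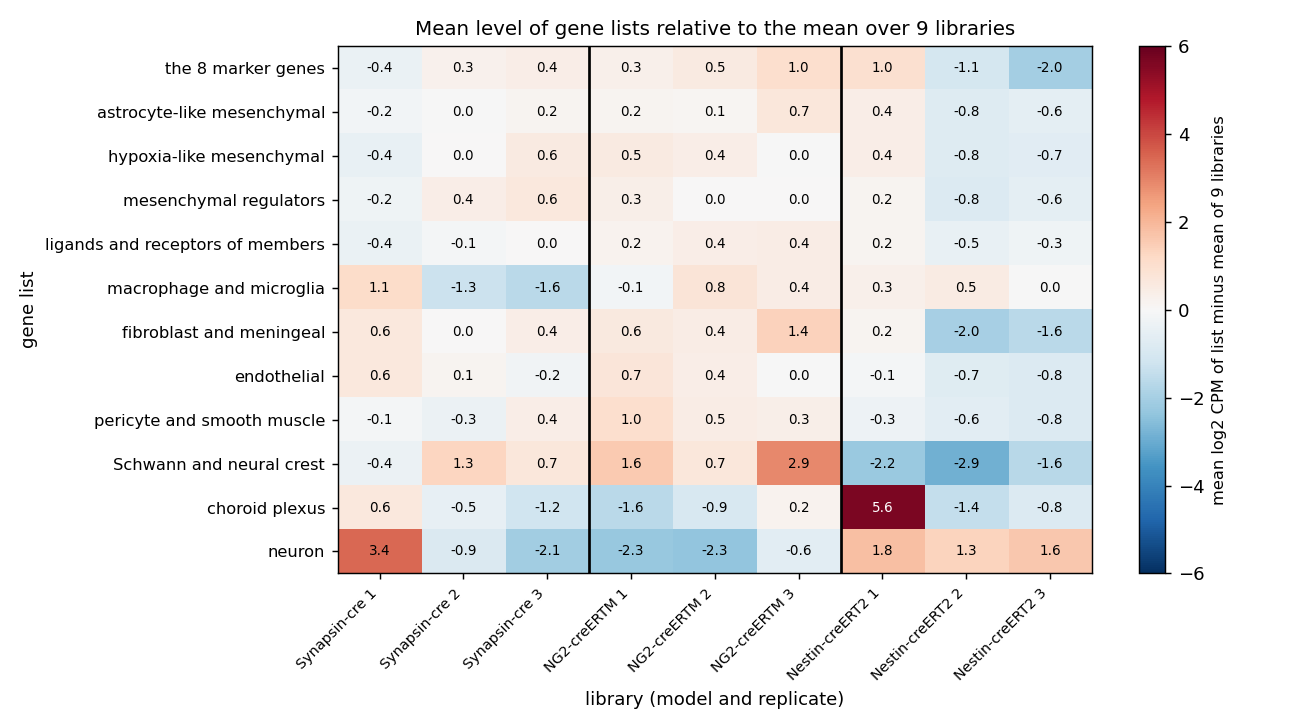
Mean log2 CPM of gene lists in each library, minus the list's mean over the 9 libraries, for the 8 marker genes, the wider mesenchymal lists and markers of other cell types. The first 4 rows are lowest in Nestin-creERT2 replicates 2 and 3, the macrophage row is lowest in Synapsin-cre replicates 2 and 3, and the choroid plexus row stands out in Nestin-creERT2 replicate 1.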

How the data were processed

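RNA of 9 tumours was sequenced, and the authors deposited a table of counts per gene identifier for each library. STAR, HTSeq and the build mm10 come from the submitters' processing notes, and the annotation release is not given in the sources used here. Column 4 of the deposited count tables, reads on the strand of the gene, was used, since the other strand held 3.25 to 3.64% of the counts in genes on either strand. The 4 summary lines, 17.9 to 27.3% of that column, were left out. Symbols, coordinates and exon lengths came from GENCODE vM21 (GRCm38), which matched 46005 identifiers and left 512 unmatched. CPM was computed with the library totals of the genes tested, scaled by TMM factors, and log2 CPM with a prior count of 2. Fitted differences came from edgeR 4.0.16 in R 4.3.3 (filterByExpr, TMM, quasi-likelihood, all 9 libraries in 1 fit), with Benjamini-Hochberg adjustment over 17947 genes and a threshold of 0.05. Limma 3.58.1, DESeq2 1.42.0, leaving out each library, fits of 2 models, no filter and unstranded counts were the alternatives, and the fit was tested on simulated data. Figures used matplotlib 3.10.9. All 8 marker genes are named. Genes of wider lists were named from those that passed in a comparison, the 3 highest by mean log2 CPM and the 2 smallest p per comparison, and likeness from the 3 highest Pearson's r (5 for the mean of the 8); other named genes were chosen after their values were seen. The marker genes and lists were chosen with earlier results of these data known. Replicate numbers follow accession order. The labels do not say that replicates are separate animals. Intervals cover counting error only.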

Additional observations from a re-analysis of the deposited data

How the results depend on the processing

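No paired analysis was possible because the labels give no replicate numbers that the models share. Of 472 alternative values for the 8 genes, 450 kept their direction and call, 22 changed direction and 0 changed call, and the cause was not tested. Genes called by the edgeR fit with all libraries were 0 in each comparison. In Synapsin-cre over Nestin-creERT2 the number was 12 with no filter, 266 in limma voom with quality weights, 506 in DESeq2, 1 with unstranded counts, 5 with 2 models only, 431 with 2 models and without Synapsin-cre replicate 1, and 0 to 273 leaving out a library. In NG2-creERTM over Nestin-creERT2 it was 12 with no filter, 160 with quality weights, 621 in DESeq2, 237 with 2 models only and 0 to 124 leaving out a library. In Synapsin-cre over NG2-creERTM it was 438 in DESeq2, 1 with 2 models and without Synapsin-cre replicate 1, and 0 to 1 leaving out a library. The median log2 fold change of the 8 genes, leaving out a library, ran from 0.19 to 2.06, 0.84 to 2.17 and −0.92 to 0.13 in Synapsin-cre over Nestin-creERT2, NG2-creERTM over Nestin-creERT2 and Synapsin-cre over NG2-creERTM. Marker genes lying above without overlap numbered 4 and 6 in the first 2 without Nestin-creERT2 replicate 1, and 3 in the first without Synapsin-cre replicate 1. These settings were chosen for this count after seeing the data. Leaving out a library, log2 fold changes that changed sign ran from −0.50 to 0.64 for Lgals3, −1.43 to 1.99 for Chi3l1 and −0.34 to 2.12 for Cd44 in Synapsin-cre over Nestin-creERT2. In NG2-creERTM over Nestin-creERT2 they ran from −2.06 to 1.14 for Chi3l1, −1.88 to 0.68 for Spp1 and −0.38 to 1.86 for Cd44. In Synapsin-cre over NG2-creERTM they ran from −1.17 to 0.63 for Anxa2, −0.10 to 1.65 for Chi3l1, −0.41 to 0.60 for Cd44 and −2.20 to 0.10 for S100a4. Limma voom gave 0.084 for Lgals3 in the first comparison and −0.40 for Anxa2 in the last, quality weights gave 0.21 for Chi3l1 and −0.069 for Anxa2 in the same comparisons, and 2 models without Synapsin-cre replicate 1 gave −0.13 for Chi3l1 in the last. Of the 5 genes most like the mean of the 8, 1 was among the closest 5 by Spearman's rho and 2 without Synapsin-cre replicate 1. With 3 libraries a model and a biological coefficient of variation of 0.612, precision was set by the spread between tumours more than by depth, except for S100a4 in Synapsin-cre replicate 1, with 2 counts.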
